A study of Mus musculus with 41 samples.

Results

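The 500 widest H3K27me3 peaks of mouse primary myotubes (MT) on chromosomes 1 to 19 were examined, out of 17135 such peaks. They were picked by width alone, from the MT H3K27me3 peak list, and are called domains here. Their widths ran from 34241 to 189300 bp with a median of 44570 bp, against a median of 5960 bp among the other 16635 peaks. Together they spanned 25.2 Mb, which is 1.02% of the autosomal genome, 15.5% of all bases in MT H3K27me3 peaks and 21.1% of the signal in those peaks. At the edge of the selection stood a 34241-bp domain inside Slc1a2 (chr2:102724121-102758361, mm10) and, just outside it, a 34203-bp peak over Spata3 and 2810459M11Rik (chr1:86016265-86050467). Because width and MT H3K27me3 chose the domains, neither is tested below.

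H3K27me3 is written by the Polycomb repressive complex PRC2, can spread along chromatin from the site where the complex is recruited, and is known for wide blankets over silent developmental genes such as the Hox clusters. CpG islands, short stretches rich in the dinucleotide CG, are the usual landing sites of Polycomb complexes in mammals. H3K18la, the lactylation of lysine 18 of histone H3, is a lactate-derived mark found at active promoters and enhancers, as is H3K27ac. H3K4me3 marks active promoters and can share a promoter with H3K27me3 in stem cells.

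The series profiled histone modifications by CUT&Tag, in which an antibody guides a transposase that inserts sequencing adapters beside the mark, in 41 samples of 24 groups. MT were obtained by differentiating primary C57BL/6 myoblasts (MB) for 3 days, and both were kept in DMEM-based medium. Gastrocnemius muscle (GAS) and post-ischemia macrophages (PIM) came from female C57BL/6 mice (C57Bl6/J in the study's methods) aged 8 to 12 weeks. PIM were sorted as CD45+CD11b+F4/80+CD64+ cells from calf muscle 2 days after artery ligation. Bone marrow-derived macrophages (BMDM) were C57BL/6 cells grown in DMEM. The stem cells were of the E14 line, kept in serum-lif (mESC-ser) or 2i-lif (mESC-2i) medium. White adipocytes (ADIPO) were enriched as tagged nuclei from fat, called epididymal in the methods, of female AdipoCre-NuTRAP mice aged 10 weeks and labelled C57BL/6, in which an adipocyte Cre drives the tag, and have no H3K27me3 list here. Every sample is labelled as a control. Stem cells went into the assay as whole cells and all others as nuclei. GAS is whole tissue, so its peaks can come from any of its cells, and a mark in few cells cannot be told apart from a weak mark in all.

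Replicates were pooled by the authors before peaks were called, so each cell type and mark gives 1 peak set and no value has a replicate error. The H3K27me3 set of MT pooled 2 samples, and those of MB and BMDM held 1 sample each. Comparisons below treat the cell type as the unit, SDs are spreads over cell types, and p-values are two-sided and come from a permutation test that flips the sign of each cell type, counted exactly. The test takes cell types as independent, but both stem cell sets are of 1 line and MB gave rise to MT, so its p-values may be too small. Set sizes differed, with H3K27me3 peaks over 53.8 Mb (MB) to 162 Mb (MT) and H3K18la peaks over 22.3 Mb (BMDM) to 135 Mb (MT), and the number of reads behind them was not used here.

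The labels were checked at promoters of marker genes, a promoter being 2000 bp on either side of a transcription start. MT H3K18la peaks lay at 7 of 8 muscle markers, with Ckm the missing one. Those of GAS lay at 6 of 8 (without Mymk and Myh3) and those of MB at 5 of 8 (without Myog, Ckm and Acta1). BMDM and PIM H3K18la peaks lay at 6 of 6 macrophage markers. Pou5f1, Nanog, Sox2 and Zfp42 were marked in both stem cell sets and in none of the other 6. In GAS, H3K18la also lay at 4 of 4 fibroblast, 3 of 4 endothelial and 1 of 6 macrophage markers, in MT at 2 of 4 fibroblast and 2 of 6 macrophage markers, and in ADIPO at 3 of 4 fibroblast, 2 of 6 macrophage and 2 of 8 muscle markers. In PIM it lay at 2 of 4 adipocyte and 2 of 4 endothelial markers. At most 1 marker of any other cell type was marked in each remaining case. H3K27me3 lay at 2 of 8 muscle markers in MT (Mymk and Ttn, which had MT H3K18la too), 1 of 8 in MB (Acta1) and 3 of 8 in GAS (Ckm, Myod1 and Acta1), at 0 of 6 macrophage markers in BMDM and PIM, and at 1 of 5 stem cell markers in either stem cell set (Esrrb).

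Chromosome 2 stood apart. It held 119 of the 500 domains (23.8%) with 7.39% of the autosomal length, while the next, chromosome 11, held 43. Its share of called bases was 1.74 times its share of length in MT H3K27me3, 2.13 times in MB H3K27me3, 1.58 times in MT H3K18la and 1.36 times in MB H3K18la, against 0.96 to 1.29 times in the other 20 sets. Of the 500 widest MB H3K27me3 peaks, 115 were on chromosome 2 too. The domains there were spread over its length, with 33, 15, 33 and 38 in 4 successive stretches of equal length. The reason, DNA copy number in these cultures included, was not tested, and the 3 tests and the main counts were repeated without chromosome 2.

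A CpG island, a stretch dense in CG dinucleotides, lay in 62 of the 64 domains where a listed transcription factor gene starts and in 145 of the other 436. The 300-bp window with the most CG dinucleotides is printed for 6 domains that the results below turn on, from the plus strand of GRCm38 (mm10), with each CG in capitals. The first 3 lie in domains of developmental regulators that stayed covered in most cell types. The window of the Wnt6-Wnt10a domain (chr1:74855388-74855687, coding exon of Cdk5r2, 45 CG), that of the Pax2 domain (chr19:44726074-44726373, intergenic, 29822 bp from the Pax2 start, 38 CG) and that of the Hoxd1-Hoxd4 domain (chr2:74763115-74763414, coding exon of Hoxd1, 44 CG) read as follows.
Wnt6-Wnt10a domain: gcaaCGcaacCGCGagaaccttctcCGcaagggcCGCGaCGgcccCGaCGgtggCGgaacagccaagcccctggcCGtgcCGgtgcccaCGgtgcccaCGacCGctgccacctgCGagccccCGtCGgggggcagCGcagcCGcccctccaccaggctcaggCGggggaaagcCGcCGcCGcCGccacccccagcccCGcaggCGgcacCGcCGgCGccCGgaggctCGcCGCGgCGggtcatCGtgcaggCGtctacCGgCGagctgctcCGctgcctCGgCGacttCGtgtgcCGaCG
Pax2 domain: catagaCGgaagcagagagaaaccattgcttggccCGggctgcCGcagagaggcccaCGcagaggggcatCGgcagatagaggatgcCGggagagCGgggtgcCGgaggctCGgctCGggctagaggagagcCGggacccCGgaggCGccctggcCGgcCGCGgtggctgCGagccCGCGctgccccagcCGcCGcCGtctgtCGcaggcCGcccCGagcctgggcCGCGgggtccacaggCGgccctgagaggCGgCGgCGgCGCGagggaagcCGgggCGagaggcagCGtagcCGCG
Hoxd1-Hoxd4 domain: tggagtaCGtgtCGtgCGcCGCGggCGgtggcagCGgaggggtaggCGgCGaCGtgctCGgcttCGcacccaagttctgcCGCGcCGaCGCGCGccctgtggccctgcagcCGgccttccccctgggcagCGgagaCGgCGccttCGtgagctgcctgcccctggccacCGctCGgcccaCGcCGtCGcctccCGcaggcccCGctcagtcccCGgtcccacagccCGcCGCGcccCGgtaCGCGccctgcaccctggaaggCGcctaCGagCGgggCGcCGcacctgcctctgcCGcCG

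The next 3 lie in domains that another cell type had covered with H3K18la, or that hold no CpG island. They are the window of the Khdc3 domain (chr9:73103368-73103667, coding exon of Khdc3 and Gm20509, 31 CG), of the olfactory receptor domain (chr1:92527300-92527599, intergenic, 8788 bp from the Olfr1414 start, 15 CG) and of the Pck1 domain (chr2:173158198-173158497, coding exon of Pck1, 16 CG).
Khdc3 domain: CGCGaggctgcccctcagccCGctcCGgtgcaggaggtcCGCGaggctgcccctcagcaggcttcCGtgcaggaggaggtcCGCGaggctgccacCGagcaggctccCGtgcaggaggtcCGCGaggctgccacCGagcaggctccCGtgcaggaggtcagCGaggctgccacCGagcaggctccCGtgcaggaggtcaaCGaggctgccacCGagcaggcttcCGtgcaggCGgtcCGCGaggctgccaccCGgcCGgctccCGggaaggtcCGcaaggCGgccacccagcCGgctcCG
Olfr domain: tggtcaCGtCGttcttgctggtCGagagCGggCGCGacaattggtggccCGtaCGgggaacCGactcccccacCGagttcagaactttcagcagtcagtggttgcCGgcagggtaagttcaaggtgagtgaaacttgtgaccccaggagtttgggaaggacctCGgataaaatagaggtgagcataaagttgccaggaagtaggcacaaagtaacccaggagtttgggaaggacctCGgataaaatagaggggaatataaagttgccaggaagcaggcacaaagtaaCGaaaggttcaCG
Pck1 domain: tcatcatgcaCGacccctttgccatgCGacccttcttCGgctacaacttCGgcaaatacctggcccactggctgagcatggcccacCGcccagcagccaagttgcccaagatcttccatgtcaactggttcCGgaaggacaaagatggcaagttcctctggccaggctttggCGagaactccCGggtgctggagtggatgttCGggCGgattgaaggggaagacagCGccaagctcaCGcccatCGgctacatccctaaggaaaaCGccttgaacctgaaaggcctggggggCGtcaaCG

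GC content was 77.7% in the Cdk5r2 and the Hoxd1 windows, 76.0% near Pax2 and 74.7% in the Khdc3 window, against 58.7% in Pck1 and 52.3% in the Olfr window. H3K4me3 was called over the Cdk5r2 window in both stem cell sets, over the Hoxd1 window in mESC-2i, over the Pax2 window in GAS and over the Khdc3 window in mESC-2i, GAS and PIM, and H3K18la of both stem cell types over the Khdc3 window, where mESC-ser had H3K27me3 too. ADIPO H3K18la and ADIPO H3K27ac covered the Pck1 window, where MT and MB were the only sets with H3K27me3. Over the Olfr window MT, MB, GAS and mESC-2i had H3K27me3 and no set had H3K18la, H3K27ac or H3K4me3.

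CpG islands were then counted over all domains. Of the 500 domains, 207 (41.4%) held at least 1 CpG island, here a stretch 500 bp long or longer whose GC content reaches 55% and whose CpG count reaches 0.65 times that foreseen from its base composition, against 6.13% of the other MT peaks, which were far narrower. Per Mb, the domains held 13.9 islands, the other MT peaks 8.38 and the autosomes 4.88. GC content was 46.9% in the domains, 45.3% in the other peaks and 41.9% over the autosomes. Island bases made up 2.75% of the middle 20% of each domain, 0.844% of the outer 10% at either end and 1.33% of the flanks, taken as 1/2 of a domain width on each side. These are descriptions with no test, since width sets how many islands a peak can hold.

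**Figure D1:**
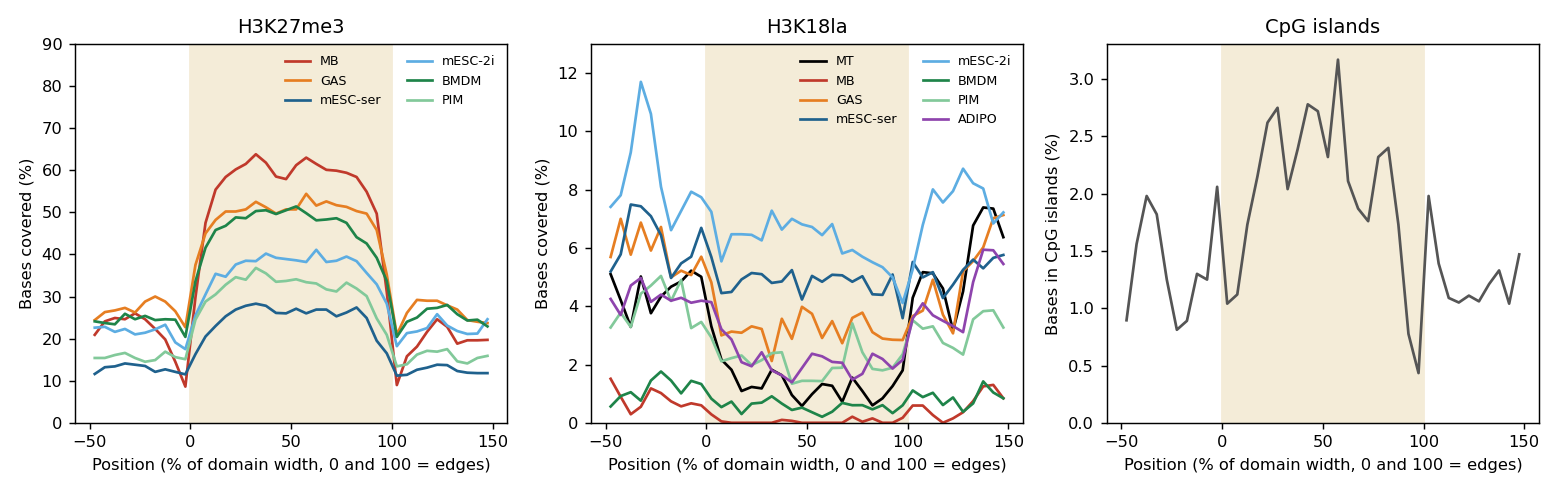
Share of bases covered by H3K27me3 peaks of 6 other cell types (left), by H3K18la peaks of 8 cell types (middle) and by CpG islands (right), in bins of 5% of the domain width, over all 500 domains (shaded) and their flanks. H3K27me3 of every other cell type was higher in the middle 20% of the width than in the flanks (MB 60.1% against 20%, mESC-ser 26.3% against 12.6%). MT H3K27me3, not drawn, covered 44.1% of the flanks, and 15.9% and 14.9% of the bins just outside the edges.

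Pooled over 10 lists, genes of transcription factor families started in the domains more often than protein-coding genes at large. Single lists among the 10 ran from 44.4% inside (paired box) to 0% (GATA). Gene starts of 436 of the 20807 autosomal protein-coding genes lay in a domain, a background of 2.10%. The 10 lists of transcription factor families had 80 of 393 genes inside (20.4%), in 64 domains, and a further 113 in the other MT peaks although those cover 137 Mb. Per Mb this was 3.18 such genes in the domains, 0.825 in the other peaks and 0.160 over the autosomes, while protein-coding genes of all kinds came to 17.3, 16.2 and 8.45 per Mb. Gene density was thus close in domains and other peaks, and the density of the listed factors was not; neither was tested. Without chromosome 2, the 500 widest remaining peaks held 65 of these transcription factor genes among 380 genes.

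Hox genes, which set position along the body axis, had 16 of 39 members inside 5 domains. All 16 were from 2 of the 4 clusters. The Hoxd cluster lay in a pair of domains 808 bp apart, a 63224-bp domain with Evx2 and Hoxd13 to Hoxd8 (chr2:74641780-74705003) and a 75019-bp domain with Hoxd3, Hoxd4 and Hoxd1 (chr2:74705812-74780830). The Hoxb cluster was split over 3 domains of chromosome 11, a 41999-bp domain with Hoxb9, a 34842-bp domain with Hoxb7, Hoxb6, Hoxb5 and Hoxb4, and a 41403-bp domain with Hoxb2 and Hoxb1. No gene of the Hoxa or Hoxc cluster started in a domain, and only 2 Hox genes started in narrower MT peaks.

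Other homeobox factors had 40 of 127 members inside, in 37 domains. They included regulators of the forebrain and eye (Six3, Six6, Vax1, Vax2, Vsx1, Emx1), the LIM factors of neurons and kidney (Lhx1 to Lhx5), limb and branchial arch genes (Dlx5, Dlx6, Pitx1, Alx4) and Nkx2-5, a heart regulator. Pax genes, transcription factors of eye, kidney, brain and B cells, had 4 of 9 inside (Pax1, Pax2, Pax5, Pax6). Basic helix-loop-helix factors had 10 of 64, among them drivers of neurons, glia and pancreas (Neurod1, Neurod2, Neurog3, Olig1, Olig2, Ptf1a) and Ascl2, a factor of trophoblast and intestinal stem cells. Sox genes had 2 of 18 (Sox2, Sox14), the zinc finger families 5 of 50 (Gli2, Zic2, Zic5, Prdm12, Ikzf3) and T-box genes 1 of 16 (T, the mesoderm regulator). Nuclear receptors with an Nr symbol had 1 of 24 (Nr2e1), forkhead genes 1 of 41 (Foxf1; 2.44%, close to the 2.10% background) and GATA genes 0 of 5. Narrower MT peaks held further starts, of 39 other homeobox, 23 basic helix-loop-helix, 12 forkhead and 11 zinc finger genes. They also held those of 9 Sox, 6 T-box, 4 Pax, 4 GATA and 3 nuclear receptor genes. Absence from the domains is thus not absence of MT H3K27me3.

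Outside the transcription factors, genes with a potassium channel symbol had 12 of 91 inside (13.2%), among them Kcna2, Kcna5 and Kcnj10. Secreted developmental signals had 7 of 80 (Wnt3a, Wnt6, Wnt7a, Wnt8b, Wnt10a, Fgf3, Fgf4), keratins 8 of 106, other cadherins 2 of 33 and genes with a transmitter receptor symbol 4 of 95 (Grin1, Chrna4, Chrm1 and Grid2ip, the last for a receptor-interacting protein). Solute carriers named in the form of Slc1a2, which leaves out Slc35d3, had 12 of 329 (3.65%), closer to the 2.10% background. The immune list (H2, type I interferon, Klr, Cd1d, defensin, serpin and Ly6 genes, without interferon-induced genes such as Ifit1) had 3 of 219, all class I histocompatibility genes (H2-Q6, H2-Q7, H2-Q10). Olfactory and vomeronasal receptors had 7 of 1413 (0.495%) and cytochromes P450 1 of 93, both under the background. Clustered protocadherins had 0 of 57.

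Housekeeping genes had 0 of 123 inside, muscle structure and enzyme genes 0 of 28, and satellite cell and early myogenic genes 0 of 12. At a background of 2.10%, lists of 28 and 12 genes are too short for a 0 to set them apart. Narrower MT peaks held the starts of 4, 1 and 3 genes of these lists, in that order. Regulators of other mesenchymal fates had 1 of 20 (Nkx2-5), macrophage genes 1 of 16 (C1qa, of the first complement component) and pluripotency genes 2 of 15 (Fgf4, Sox2). Gene starts were absent from 201 domains, of which 107 overlapped a protein-coding gene further along its body and 94 overlapped none. Gene bodies took up 48.0% of domain bases against 40.4% in other MT peaks and 40.3% over the autosomes.

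**Figure D2:**
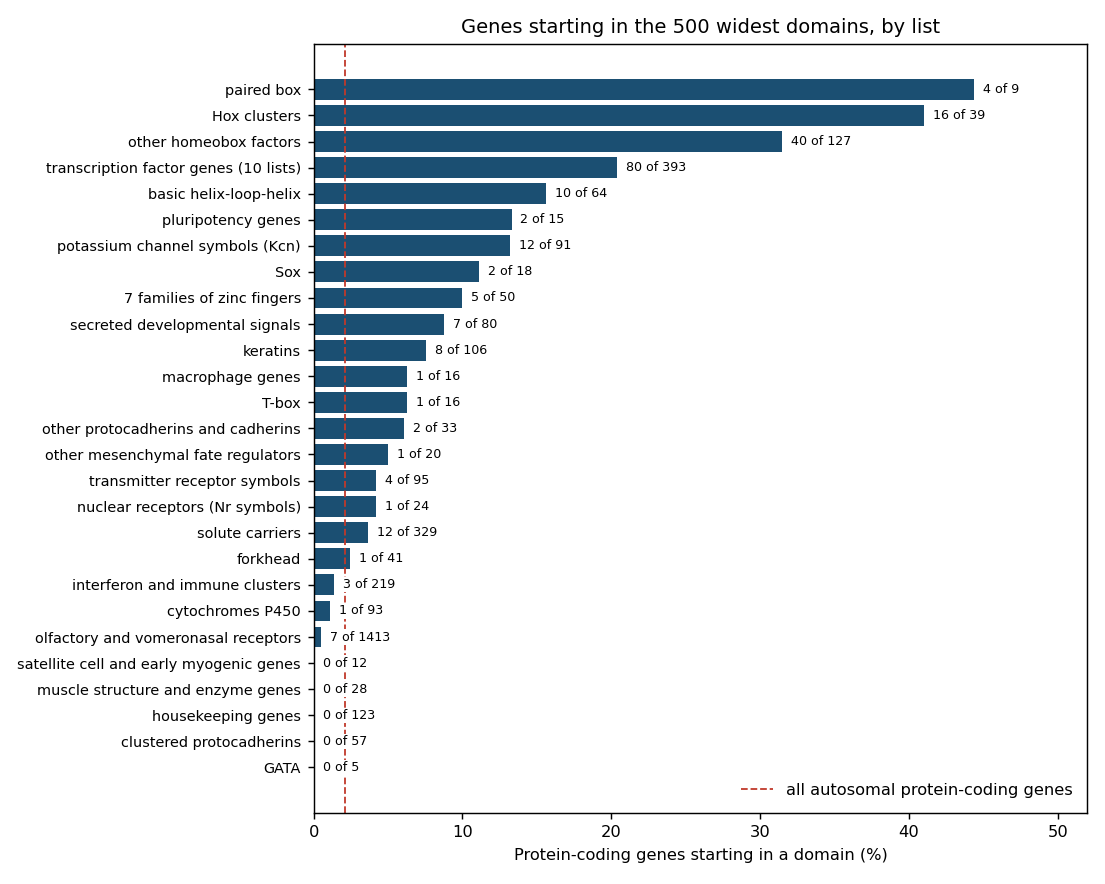
Share of each gene list that starts in 1 of the 500 domains, in percent, with the number of genes beside each bar and a dashed line at the 2.10% of all autosomal protein-coding genes. Paired box genes (4 of 9), Hox genes (16 of 39) and other homeobox factors (40 of 127) lead. Housekeeping, muscle, satellite cell, GATA and clustered protocadherin genes are at 0, which a short list can reach at the background too.

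The 10 widest domains held tissue gene clusters as well as regulators. The widest (189300 bp, chr2:4007748-4197047) lay over the start and body of Frmd4a, a scaffold of cell polarity, with no CpG island. Next came a 152124-bp domain over Wnt6, Wnt10a, Cdk5r2, Fev and Cryba2 (chr1:74759193-74911316), which include a pair of secreted Wnt ligands and the neuronal factor Fev, and a 142118-bp domain over Pax2 (chr19:44713157-44855274). The fourth (133270 bp, chr7:79486344-79619613) ran over Rhcg, an ammonia transporter, and the neural microRNA gene Mir9-3. The tenth (102675 bp, chr11:84514857-84617531) held Lhx1, a regulator of head and kidney formation.

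Of the other 5, the fifth domain held 6 olfactory receptor genes (122750 bp, chr1:92490079-92612828) and the sixth 6 seminal vesicle secretory genes of the Svs family (113578 bp, chr2:164228405-164341982). Rasgrp1, a Ras activator of lymphocytes, lay in the seventh (chr2:117318263-117431551), Otof, a calcium sensor of hair cells, in the eighth (chr5:30394163-30503656) and Tmem178 in the ninth (chr17:80868235-80975061). Reads from near-identical copies, as in the Olfr, Svs and H2-Q families, cannot be placed with certainty.

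H3K27me3 of the other 6 cell types covered the domains more fully than it covered the narrower MT peaks. The covered share of domain bases was 55.7% in MB, 49.0% in GAS, 46% in BMDM, 36.4% in mESC-2i, 31.5% in PIM and 24.7% in mESC-ser. In the other MT peaks it was 25.7%, 33.4%, 23.6%, 24.7%, 20.4% and 16.1% in that order, so the domains were higher in 6 of 6 cell types. Over the whole autosomal genome the same sets covered between 2.18% (MB) and 5.85% (mESC-2i). Without an error per set, the order of cell types is a description, and set size goes into it.

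The difference between domains and other MT peaks was 16.6 ± 8.15 percentage points (SD, n = 6 cell types; 40.5% against 24% on average), from 8.66 in mESC-ser to 30 in MB (p = 0.0312, exact sign-flip permutation test, the smallest p that 6 cell types allow; BH-adjusted p = 0.0469 over 3 tests). Against only those other MT peaks of at least 10000 bp the mean difference was 11.3 points. Among the 4 cell types profiled from nuclei the difference was 19.7 ± 8.29 points, where the smallest possible p is 0.125, and it averaged 10.2 points in the 2 stem cell sets. Without chromosome 2 it was 16.6 points as well.

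**Figure D3:**
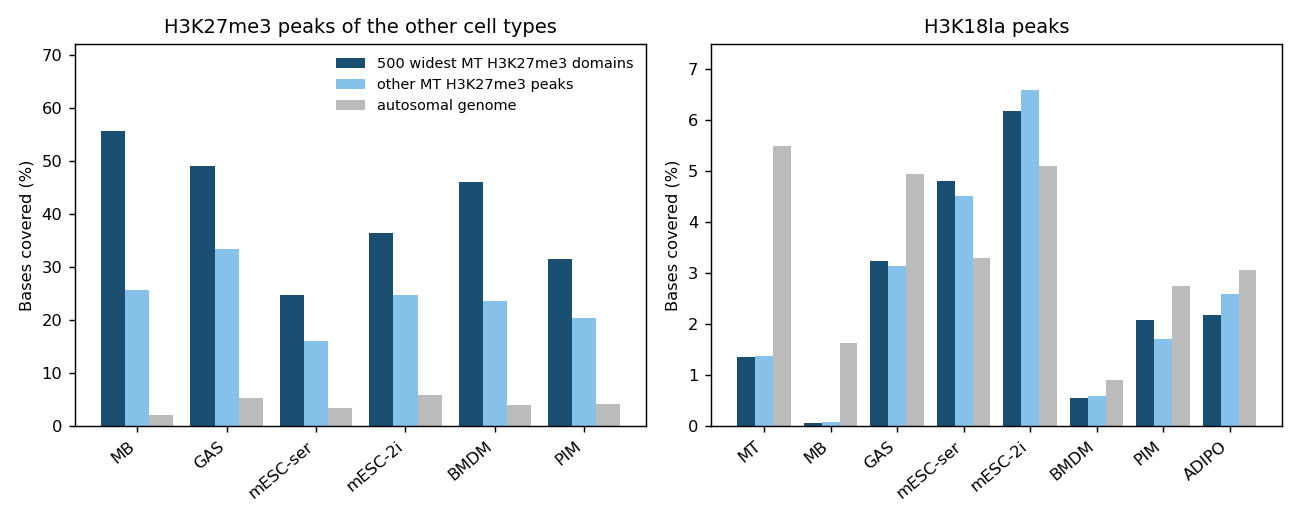
Percent of bases covered by H3K27me3 peaks (left) and H3K18la peaks (right) of each cell type, in the 500 widest MT H3K27me3 domains (dark), the other MT H3K27me3 peaks (light) and the autosomal genome (grey). For H3K27me3 the dark bar is the tallest in all 6 cell types, from 24.7% to 55.7%. For H3K18la dark minus light runs from -0.424 to 0.374 percentage points.

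Counted by domain, H3K27me3 covered at least 50% of the bases of 300 domains in MB (background 18.1% of all 17135 MT peaks), 242 in GAS (background 30.7%), 227 in BMDM (21.0%), 179 in mESC-2i (22.3%), 124 in PIM (18.1%) and 92 in mESC-ser (13.1%). Under 10% was covered in 15 domains in MB (3.00%, background 58.5%), 60 in GAS (12%, background 48.2%), 119 in BMDM (23.8%, background 70.0%), 131 in mESC-2i (26.2%, background 64.7%), 168 in PIM (33.6%, background 70.7%) and 208 in mESC-ser (41.6%, background 73.3%). Most background peaks are far narrower than the domains, and width goes into each such share of regions, here and below. The other sets had a median of 4 separate H3K27me3 peaks per domain in MB and GAS and 2 in each of the other 4 types. Each domain is 1 unbroken MT peak by the rule, so a contrast with MT in the number of pieces follows from the selection. Set size and peak calling go into it too. The widest of these pieces had a median of 10770 bp in MB, 8400.5 bp in GAS, 12168 bp in BMDM, 8097.5 bp in mESC-2i, 7560 bp in PIM and 4652 bp in mESC-ser. A single peak filled at least 90% of a domain in 35 domains in BMDM (7.00%, background 9.38% of all MT peaks), 11 in mESC-2i (2.20%, background 7.85%), 8 in PIM (1.60%, background 7.42%), 2 in MB (0.400%, background 1.98%), 2 in GAS (0.400%, background 6.92%) and 1 in mESC-ser (0.200%, background 3.74%), and narrower peaks take a shorter peak to fill.

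All 6 other cell types covered at least 50% of 46 domains (9.20%, background 2.39% of all MT peaks), and 105 domains reached that share in no other cell type (21.0%, against 45.5% of all MT peaks). The count of 46 fell to 21 with the 5000 largest peaks per set and to 20 with sets reduced to the bases of the smallest, and was 87 over the 4 cell types profiled from nuclei alone. A listed transcription factor gene started in 31 of the 46 shared domains, and 42 of them held a CpG island. The 5 widest were those of Rhcg with Mir9-3, of Lhx1, of H2-Q6, H2-Q7 and H2-Q10, of Dmbx1 and of Hoxd3 to Hoxd1.

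The Rhcg domain was covered to 86.1% in MB, 95.9% in GAS, 83.9% in mESC-ser, 54.5% in mESC-2i, 98.9% in BMDM and 84.5% in PIM. The Lhx1 domain had 76.9%, 77.9%, 51.9%, 74.8%, 100% and 89.3% in the same order. The Dmbx1 domain (78122 bp, chr4:115926596-116004717), over a homeobox gene of the developing brain, had 79.7%, 83.5%, 67.1%, 52.2%, 76.5% and 75.2%. In these 3 domains the lowest value was in a stem cell set, and both macrophage sets were above 75%.

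The Hoxd3 to Hoxd1 domain was covered to 76.4% in MB, 73.1% in GAS, 91.8% in mESC-ser, 52.8% in mESC-2i, 80.2% in BMDM and 83.1% in PIM, and its neighbour with Hoxd13 to Hoxd8 to 91.1%, 76.1%, 88.1%, 63.8%, 100% and 98.3%. The H2-Q domain (86348 bp, chr17:35390123-35476470) had 87.1%, 92.4%, 71.6%, 75.7%, 99.8% and 99.4%. Here mESC-ser was above mESC-2i in both Hoxd domains and below it in the H2-Q domain.

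**Figure D4:**
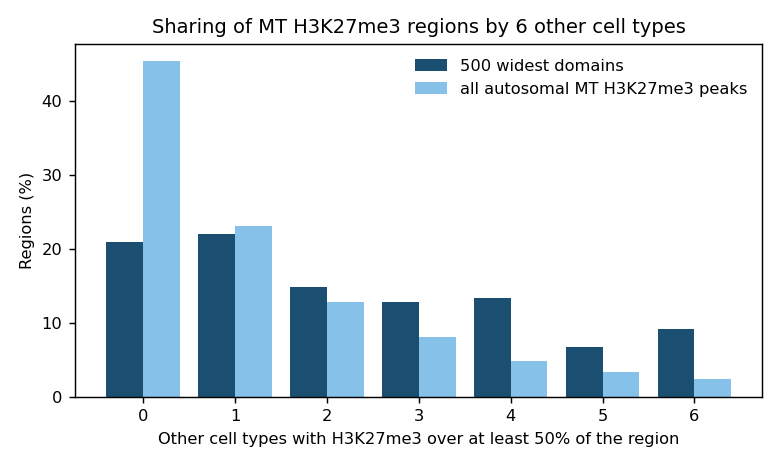
Percent of regions by the number of other cell types (0 to 6) whose H3K27me3 peaks cover at least 50% of the region, for the 500 domains and for all MT H3K27me3 peaks. In all 6 types 9.20% of domains and 2.39% of all peaks were covered, and in none 21.0% and 45.5%. Most of the peaks are far narrower than the domains.

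Domains with a CpG island or a listed transcription factor gene were covered more fully than the rest in every cell type. With a CpG island inside (207 domains), H3K27me3 covered 64.9% of bases in MB, 61.4% in GAS, 40.5% in mESC-ser, 46.9% in mESC-2i, 61.8% in BMDM and 50.7% in PIM. Without one (293 domains) it covered 48.5%, 39.3%, 12.4%, 28.2%, 33.6% and 16.4%. The gap was thus 16.4 percentage points in MB against 34.3 in PIM. The 64 domains with a gene of the 10 transcription factor lists had 69.4%, 78.8%, 57.9%, 56.4%, 76.3% and 69.0%, and the other 436, which include factor genes outside the lists such as Fev, Fli1 and Ppara, had 53.6%, 44.3%, 19.5%, 33.3%, 41.2% and 25.6%. These splits were chosen after earlier results were known and carry no test.

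At the gene starts themselves, H3K27me3 peaks touched the promoters of 80 of the 80 transcription factor genes in MB, 79 in BMDM and in PIM, 77 in mESC-ser, 76 in GAS and 72 in mESC-2i. Of all 436 genes in the domains the promoter was marked for 395 in MB (90.6%, background 11.1% of all protein-coding genes), 362 in GAS (83.0%, background 21.1%), 328 in BMDM (75.2%, background 18.2%), 308 in mESC-ser (70.6%, background 24.8%), 304 in mESC-2i (69.7%, background 19.8%) and 302 in PIM (69.3%, background 24.8%). The largest gap between the factor genes and the other 356 genes was in PIM, at 98.8% against 62.6%, and the smallest in MB, at 100% against 88.5%.

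The Hox domains differed in mESC-2i. The Hoxb9 domain was covered to 5.30% in mESC-2i against 66.5% in mESC-ser, and 36.3% of it carried mESC-2i H3K18la against 6.89% in mESC-ser. The Hoxb7 to Hoxb4 domain was covered to 100% in MB, mESC-ser and mESC-2i, 76.8% in GAS, 75.5% in BMDM and 70.2% in PIM. ADIPO H3K18la lay over 58.6% of that domain and over 21.0% of the Hoxb2 to Hoxb1 domain. H3K18la of MT and of MB was at 0% in all 5 Hox domains.

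H3K27me3 was under 10% in every other cell type in 4 domains (0.800%, background 25.9% of all MT peaks), and in 26 when the MB set, 1 sample of the culture that gives MT, was left out. With the 5000 largest peaks per set the count was 17, and most of the background peaks are far narrower. The 4 ranked 430 to 457 by width, and none had a CpG island or a protein-coding gene start. They were a domain of 36541 bp without a protein-coding gene (chr17:81106818-81143358), one of 35992 bp inside Kcnma1, the large-conductance potassium channel (chr14:23429824-23465815), and 2 more without a protein-coding gene (chr1:168051153-168086819 and chr3:57693232-57728755). The last was at 0% in all 6 cell types. The Kcnma1 domain carried H3K18la over 22.2% in ADIPO and 11.2% in GAS.

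Some of the widest domains were nearly free of the mark in stem cells. The Svs domain was covered to 54.9% in MB, 35.6% in GAS, 22.7% in BMDM, 9.08% in PIM, 8.27% in mESC-2i and 0% in mESC-ser. The Frmd4a domain had 57.7% in MB and 20.4% in GAS against 2.50% in mESC-ser, 3.55% in mESC-2i, 7.37% in BMDM and 2.43% in PIM. The olfactory receptor domain had 69.4% in MB, 50.3% in GAS and 57.9% in BMDM against 4.72% in both stem cell sets and 6.22% in PIM. In all 3, the MB value was the highest of the 6.

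Also at 0% in mESC-ser were the next widest domains by the rule for named domains. A 97363-bp domain over Cckar, a cholecystokinin receptor gene, had 38.6% in MB, and a 94018-bp domain inside Epb41l4b had 55.6% in MB and 8.92% in GAS. An 81087-bp domain with Wfdc2, Wfdc6a, Wfdc6b, Wfdc8, Spint3 and Eppin, a cluster of protease inhibitor genes of the male reproductive tract, had 79.2% in MB, 73.3% in GAS, 68.3% in BMDM, 39.8% in PIM and 19% in mESC-2i. An 80655-bp domain without a protein-coding gene (chr6:115040361-115121015) had 58.0% in BMDM.

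The 5 domains named for least H3K27me3 in macrophages were the widest at 0% in both BMDM and PIM. The widest of them (79158 bp, chr15:78302833-78381990) held Csf2rb and Csf2rb2, receptor chains for hematopoietic cytokines, and had 41.3% in MB, 14.7% in mESC-2i, 4.33% in mESC-ser and 0% in GAS. The Lyz2 and Lyz1 domain (lysozymes, 42557 bp, chr10:117272711-117315267) was at 0% in both macrophage sets and in mESC-ser, against 70.5% in MB, 37.8% in GAS and 23.5% in mESC-2i. The other 4 of the 5 lay over Gm14085, Acoxl, the transporter gene Abcc2 and a stretch of chromosome 14 without a protein-coding gene. The promoters of Nos2 and Mmp9, which activated macrophages can express, lay in domains too and had H3K27me3 in both BMDM and PIM. H3K18la lay at the Mmp9 promoter in BMDM, PIM and mESC-ser and at that of Nos2 in BMDM and MT, and PIM H3K4me3 and H3K27ac at that of Mmp9. Both genes were named after their values were seen.

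In MB the lowest values were in narrow domains. H3K27me3 was at 0% in a domain inside Slc5a4a (chr10:76156646-76198632), in the Cyp4f39 domain (chr17:32433515-32474301) and in the domain chr3:57693232-57728755, which lacks a protein-coding gene, and at 4.16% and 4.97% in the 2 next. No domain with more than 41987 bp was among these 5. The narrowest domain of all, inside the glutamate transporter gene Slc1a2, had 54.2% in MB, 29.5% in mESC-2i, 7.18% in mESC-ser and 0% in GAS, BMDM and PIM, and the peak just outside the selection had 77.1%, 24.1%, 39.0%, 59.2%, 72.3% and 56%.

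H3K18la covered few bases of the domains, and no difference from the narrower MT H3K27me3 peaks was detected. Its share of domain bases was 6.18% in mESC-2i, 4.81% in mESC-ser, 3.25% in GAS, 2.19% in ADIPO, 2.08% in PIM, 1.36% in MT, 0.556% in BMDM and 0.0535% in MB. In the other MT peaks it was 6.60%, 4.52%, 3.14%, 2.59%, 1.71%, 1.37%, 0.594% and 0.0837%. The mean difference was -0.0155 ± 0.286 points (SD, n = 8 cell types; 2.56% against 2.58%), higher in the domains in 3 of 8 (p = 0.812, exact sign-flip permutation test; BH-adjusted p = 0.812). The difference ran from -0.424 points in mESC-2i to 0.374 in PIM. Without chromosome 2 its mean was -0.107 points (p = 0.359, exact sign-flip permutation test; BH-adjusted p = 0.359).

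Set against the genome, H3K18la in the domains was lower in 6 cell types and higher in both stem cell types. Domain coverage over genome coverage was 0.0329 in MB, 0.248 in MT, 0.614 in BMDM, 0.657 in GAS, 0.715 in ADIPO and 0.754 in PIM, against 1.21 in mESC-2i and 1.46 in mESC-ser. The same ratio for H3K27me3 was 25.5 in MB, 11.5 in BMDM, 9.30 in GAS, 7.65 in PIM, 7.18 in mESC-ser and 6.22 in mESC-2i. On the log2 scale H3K27me3 exceeded H3K18la by 4.28 ± 2.72 (SD, n = 6 cell types), from 2.3 in mESC-ser to 9.60 in MB (p = 0.0312, exact sign-flip permutation test; BH-adjusted p = 0.0469). Without MB, whose H3K18la covers only 13.5 kb of the domains, the mean was 3.21, and without chromosome 2 it was 4.62. The domains were picked as MT H3K27me3 peaks, which favours such an excess, and it was not particular to the widest ones. In the other MT peaks the ratio was 4.22 (mESC-2i) to 11.8 (MB) for H3K27me3. For H3K18la of the same 6 types it was 0.0515 (MB) to 1.37 (mESC-ser) there.

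The share of H3K18la lying in H3K27me3 peaks of the same cell type was also measured within the domains. Of H3K18la bases, 0% lay in such peaks in MB, 7.65% in BMDM, 12% in mESC-2i, 18.5% in PIM, 23.1% in GAS and 31.4% in mESC-ser. H3K27me3 covered 24.7% of domain bases in mESC-ser, so there the share over H3K18la was above the share over the domains, and in the other 5 types it was below it.

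Over the 436 promoters, H3K18la was called at 0 in MB (0%, background 8.56% of all protein-coding genes), 11 in MT (2.52%, background 30.8%), 20 in BMDM (4.59%, background 15.6%), 36 in ADIPO (8.26%, background 41.8%), 39 in PIM (8.94%, background 34.3%), 50 in GAS (11.5%, background 32.2%), 65 in mESC-2i (14.9%, background 34.9%) and 69 in mESC-ser (15.8%, background 30.5%). The factor genes among them had 0 of 80 in MT, MB and BMDM and 12 of 80 in mESC-ser. H3K4me3 lay at the promoters of 73 of the 80 factor genes in mESC-2i (91.2%, background 59.7%), 43 in GAS (53.8%, background 61.6%), 35 in PIM (43.8%, background 56.9%) and 31 in mESC-ser (38.8%, background 47.6%). It was thus above the background in mESC-2i alone of the 4. Over all 436 promoters it was at 54.4% in mESC-2i, 41.7% in GAS, 31.9% in PIM and 29.1% in mESC-ser, below the background in each. H3K27ac lay at 1 to 6 of the 80 in its 5 cell types, where the background was 44.6% in GAS, 38.5% in mESC-ser, 32.1% in BMDM, 46.3% in PIM and 43.5% in ADIPO.

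H3K4me3 covered 5.27% of domain bases in mESC-2i against 3.78% of other MT peaks, 3.59% against 2.61% in PIM, 2.92% against 2.59% in mESC-ser and 2.67% against 2.39% in GAS. For H3K27ac the pairs were 4.31% and 4.80% in GAS, 1.3% and 1.70% in ADIPO, 1.08% and 1.14% in mESC-ser, 0.659% and 0.646% in BMDM and 0.605% and 0.565% in PIM. With 4 and 5 cell types these cannot reach 0.05 in a sign-flip test and are given as values. In domains with a CpG island mESC-2i H3K4me3 covered 9.95%, against 1.60% in those without.

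Single domains carried H3K18la over much of their length in one or a few cell types. At least 10% of the bases had it in 98 domains in mESC-2i (19.6%, background 11.8% of MT peaks), 75 in mESC-ser (15%, background 9.60%), 52 in GAS (10.4%, background 7.70%), 35 in PIM (7.00%, background 5.03%), 34 in ADIPO (6.8%, background 6.31%), 15 in MT (3.00%, background 3.68%), 5 in BMDM (1.00%, background 2.22%) and 0 in MB (0%, background 0.321%). These shares were above the background in mESC-2i, mESC-ser, GAS and PIM, close to it in ADIPO and MT, and below it in BMDM.

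H3K18la of at least 10% together with H3K27me3 under 10% in the same cell type was found in 48 domains in mESC-2i (9.60%, background 9.23%), 29 in mESC-ser (5.80%, background 5.74%), 17 in PIM (3.40%, background 3.58%), 16 in GAS (3.20%, background 5.00%), 2 in BMDM (0.400%, background 1.90%) and 0 in MB (background 0.146%). Such an exchange was close to the background in mESC-2i, mESC-ser and PIM, and below it in GAS and BMDM. Of the domains that were under 10% for H3K27me3, it made up 36.6% in mESC-2i (background 14.3% of the MT peaks under 10%), 26.7% in GAS (background 10.4%), 13.9% in mESC-ser (background 7.83%), 10.1% in PIM (background 5.06%), 1.68% in BMDM (background 2.71%) and 0% in MB (background 0.249%). On this base the share was above the background in mESC-2i, GAS, mESC-ser and PIM, since fewer domains than other MT peaks were under 10%. Width goes into these counts as well.

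In stem cells they included a pair of pluripotency genes. The Sox2 domain (53016 bp) had H3K27me3 over 83.9% in MB, 90.8% in GAS, 53.4% in BMDM and 58.4% in PIM and 0% in both stem cell sets, where H3K18la covered 64.1% (mESC-ser) and 65.4% (mESC-2i). The Fgf3 and Fgf4 domain (55657 bp, chr7:144815736-144871392), growth factors of the early embryo, had 71.7% in MB, 81.4% in GAS, 100% in BMDM, 33.2% in PIM, 23.8% in mESC-ser and 0% in mESC-2i, with H3K18la over 38.9% in mESC-ser and 85.7% in mESC-2i. No other cell type had H3K18la in either domain.

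The Khdc3 and Gm20509 domain (39226 bp, chr9:73071794-73111019), with an oocyte and stem cell gene, carried H3K18la over 77.1% in mESC-ser and 83.7% in mESC-2i, 13.3% in PIM and 6.42% in ADIPO, and H3K27me3 over 60.7% in MB and 45.9% in GAS. A domain without a protein-coding gene (chr7:126313577-126360334) had 69.7% and 79.0% H3K18la in the 2 stem cell sets. The Srcin1 domain (71355 bp, chr11:97526252-97597606), over a gene for a neuronal Src inhibitor, differed in that mESC-ser had both marks, with 52.4% H3K18la and 51.1% H3K27me3, while mESC-2i had 84.0% and 11.8%. H3K27me3 lay over 64.6% to 72.1% of it in MB, GAS, BMDM and PIM.

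Macrophage H3K18la was highest in a domain inside Fli1, a transcription factor gene of blood and endothelium (46647 bp, chr9:32471149-32517795). It covered 49.7% in PIM, 34.9% in GAS and 24.6% in BMDM, and H3K27me3 was at 0% in BMDM and PIM, 19.7% in GAS, 29.2% in mESC-ser, 76.2% in MB and 76.3% in mESC-2i. The Lyz2 and Lyz1 domain had H3K18la over 26.6% in PIM, 20.3% in BMDM and 9.67% in ADIPO. The Csf2rb domain had 21.1% in ADIPO, 17.7% in PIM, 7.51% in GAS and 3.27% in BMDM.

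Of the 17 domains with this exchange in PIM, 12 held a protein-coding gene start, as did 299 of all 500 domains. The genes starting there were Itgax, Itgad, Lcp1, Cd300lf, Ccr6, Lyz1, Lyz2, Csf2rb, Csf2rb2, Fli1, Rcsd1, Prex1, Lrrc63, Slco2b1, Slc28a2, Khdc3 and Gm20509, named after their values were seen. The C1q domain, with C1qa, C1qb and C1qc, had H3K18la over 25.2% in PIM, 14.9% in BMDM, 15.3% in mESC-2i and 11.0% in GAS but kept H3K27me3 over 49.5% in BMDM and 24.8% in PIM. At the 3 promoters themselves BMDM had H3K18la and no H3K27me3, and PIM had H3K18la at all 3 and H3K27me3 at those of C1qa and C1qc.

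GAS H3K18la covered nearly all of the Rcsd1 domain (51037 bp, chr1:165668226-165719262), a gene for a protein that binds actin capping protein, at 97.6%, against 44.7% in PIM, 6.93% in MT, 3.64% in mESC-ser and 3.20% in BMDM. H3K27me3 there was 48.5% in MB, 39.1% in mESC-ser, 68.4% in mESC-2i and 0% in GAS, BMDM and PIM. The other genes starting in GAS domains with this exchange were Fam78a, Plpp7, Slco2b1, Kcng4, Aplnr (an endothelial receptor), Mgll, Sema4d, Hlf, Sorl1, Prex1, Ppara, Pla2g4e and Pla2g4d, named after their values were seen. Endothelial and fibroblast markers carried H3K18la in GAS as given above, and their part in these values was not tested.

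Adipocyte H3K18la was highest over Pck1 (36806 bp, chr2:173122386-173159191), the gene of phosphoenolpyruvate carboxykinase in gluconeogenesis and glyceroneogenesis. It covered 88.9% in ADIPO and 0% in the other 7 cell types, and H3K27me3 covered 87.1% in mESC-2i, 83.6% in MB, 34.3% in GAS and 0% in mESC-ser, BMDM and PIM. A domain inside Hivep3 (39457 bp, chr4:119842760-119882216) had 62.2% in ADIPO and 0% in the rest, with H3K27me3 over 42.0% in MB and 41.1% in mESC-2i. Both domains lacked a CpG island.

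In MT itself, H3K18la in a domain lies inside an MT H3K27me3 peak by construction. It was found in any amount in 71 of the 500 domains (14.2%, background 4.79% of all MT peaks, most of which are far narrower). The domain with most of it (49708 bp, chr2:180347677-180397384) held Mir1a-1, a muscle microRNA gene, and the noncoding gene B230312C02Rik, and had H3K18la over 75.9% in MT and 74.2% in GAS but over 0% in MB and the other 5 types. H3K27me3 covered 88.3% of it in MB, 80.3% in mESC-2i, 72.7% in BMDM and 43.7% in mESC-ser, and between 32.7% (PIM) and 34.7% (GAS) in the other two. Both MB and MT thus had wide H3K27me3 there, and H3K18la was called in MT alone of the 2.

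The domain of Fam78a and Plpp7 (44400 bp, chr2:32054868-32099267) followed, with H3K18la over 46.1% in MT, 47.7% in GAS, 23.5% in mESC-ser and 16.1% in mESC-2i and H3K27me3 over 51.5% in MB and 0% in GAS. A domain without a protein-coding gene (chr2:38376923-38424552) had 37.8% H3K18la in MT, 34.0% in GAS and 4.40% in MB. All 3 were on chromosome 2. Over the 119 domains of that chromosome MT H3K18la covered 3.39% of bases, and over the other 381 it covered 0.643%, while for GAS the values were 3.66% and 3.11%. The highest value in MB was 6.58%, in a domain inside Tox2 (chr2:163254385-163292757).

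**Figure D5:**
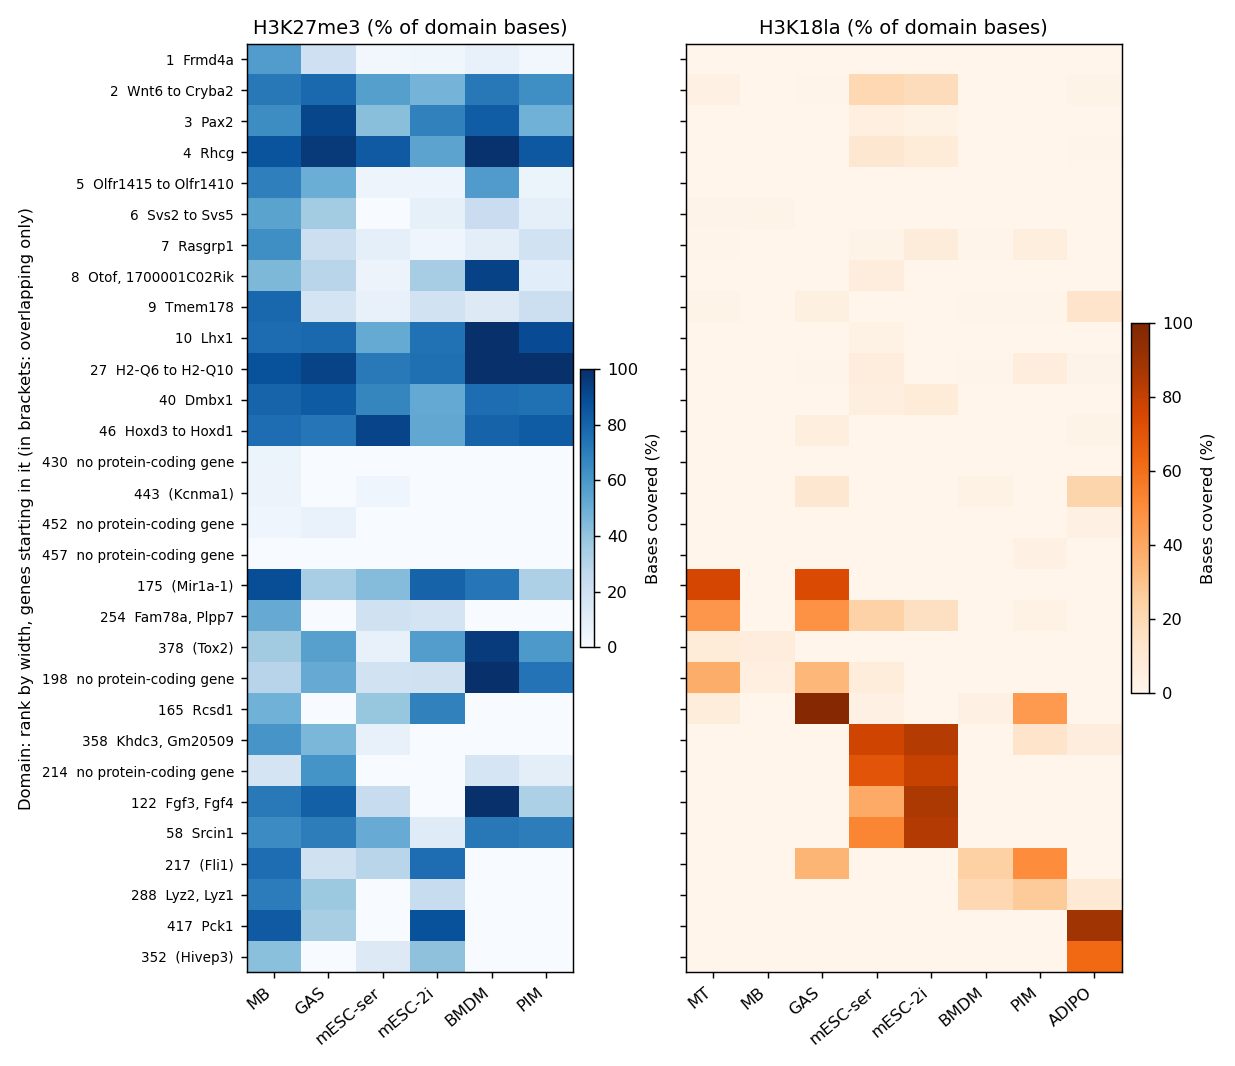
Percent of domain bases covered by H3K27me3 peaks of 6 cell types (left, blue) and H3K18la peaks of 8 cell types (right, orange), from 0 to 100, for the 10 widest domains, the widest covered in every or no other cell type, and the 2 with most H3K18la per cell type. Rows give the rank by width and the genes that start in the domain. H3K18la of Rcsd1 in GAS (97.6%), Pck1 in ADIPO (88.9%) and Fgf3 with Fgf4 in mESC-2i (85.7%) are the darkest orange cells.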

How the data were processed

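CUT&Tag libraries of 41 mouse samples were trimmed with Trim Galore 0.6.6 and aligned to mm10 with Bowtie2 2.4.4 by the authors, and handled with SAMtools 1.13 and bedtools 2.30, per the study's methods and the submitters' processing notes. The authors combined the coverage of replicates and called peaks with SEACR 1.3 in stringent mode, keeping the top 1% of regions. The deposited signal used here, the total fragment coverage per peak, holds whole numbers and was not scaled for depth, so signal was used only to rank peaks within a list and never compared between lists. The methods state that peaks over blacklisted regions were removed, without saying whether the deposited lists were made before or after that step, and duplicate removal is not given in the sources used here. The study lists reads per sample in a supplement, which was not used here. Stem cell lists that name no medium were taken as mESC-ser.

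From the 24 lists, peaks on chromosomes 1 to 19 were used. Coverage is the percent of bases of a region set inside the peaks of a list. The 3 comparisons used a two-sided permutation test that flips the sign of each cell type, by exact enumeration, and Benjamini-Hochberg (BH) adjustment. A domain counted as covered from 50% and as not covered under 10%. Genes and their starts came from GENCODE M21, CpG islands and printed windows from the GRCm38.p6 sequence (mm10). The domains named were the 10 widest, the 5 widest covered in every and in no other cell type, the 2 with most H3K18la per cell type, the 5 with least H3K27me3 in mESC-ser, in macrophages and in MB, and those on either side of the width limit. Domains of some list members, namely Sox2, C1qa and Hox genes, were described as well, outside this rule. Genes named were those starting in these domains and members of 26 gene lists. Other genes were named outside this rule, most of them after their values were seen. The members, lists and comparisons were chosen with earlier results of these data known. Python 3.11.15 with numpy 2.4.6, pandas 2.3.3 and matplotlib 3.10.9 was used, and the interval functions and the test were tested on simulated data. Alternatives covered the number and joining of domains, the comparison regions, the size of the other sets, the cell types, the thresholds and the definition of a gene start.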

Additional observations from a re-analysis of the deposited data

Results flagged for a closer look

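Chromosome X was outside the selection, and 18 H3K27me3 peaks of MT on it were at least as wide as the narrowest of the 500 domains. They are listed here because no comparison used them. Their genes and their coverage in other cell types were not analysed.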

How the results depend on the processing

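No paired analysis was possible because replicates were pooled before peak calling and each group has 1 peak set. The higher H3K27me3 coverage of the domains held its direction under all alternatives (10.7 points with MT peaks closer than 5000 bp merged to 38.0 points against sequence outside MT peaks), and it missed the threshold only with fewer cell types, where no p can pass it: 19.7 points with nuclei only, and 13.9 (without MB) to 18.1 points leaving out 1 cell type. The excess of H3K27me3 over H3K18la behaved alike, at 5.25 (log2) with nuclei only and 3.21 to 4.67 leaving out 1 cell type. The H3K18la difference, never past the threshold, turned sign to 0.0463 points with sets reduced to the bases of the smallest, to 0.00139 with nuclei only, and ran from -0.0712 to 0.0428 leaving out 1 cell type.

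Counts moved by construction with thresholds and set sizes. Domains covered in every other cell type numbered 26 of the 250 widest, 75 of the 1000 widest, 22 with MT peaks merged, 21 with the 5000 largest peaks per set, 20 with sets reduced to the smallest, 87 with nuclei only, 125 with 25% and 4 with 75% as the threshold, and 46 to 58 leaving out 1 cell type. Domains under 10% in every other cell type, 4 as reported, numbered 0 of the 250 widest, 12 of the 1000 widest, 11 with MT peaks merged, 17 with the 5000 largest peaks, 1 with 5% and 11 with 20% in place of 10%, and 4 to 26 leaving out 1 cell type, with 26 reached without MB. Leaving out chromosome 2, an alternative chosen after seeing the data, changed none of these calls, with 43 and 6 domains. Genes starting in a domain numbered 493 by any transcript start and 462 by promoter overlap, of which 81 and 81 were transcription factor genes. Each set is a single call without replicate error.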
